A study of Homo sapiens with 46 samples.

Results

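MALAT1 and NEAT1 are neighbouring genes of long noncoding RNAs, and their RNA was followed here through 4 fractions of the cell (cytoplasm, nucleus, nucleoplasm and chromatin) in 4 cell types. The members were chosen by gene symbol in the count and TPM tables of the 4 assemblies, 1 for each cell type. This gave 2 genes of 21183 named genes, and 9 assembled transcripts of 153960 over these assemblies. The pair was picked with its values in the fractions known, so the differences between fractions of a cell type are given below as a description with no test, and tests are given only for differences between cell types within a fraction.

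The cells were undifferentiated H1, a human pluripotent stem cell line (hPSC), and 3 derivatives grown from H1 in culture. Ectoderm was made with the inhibitors A83-01, PNU-74654 and dorsomorphin, endoderm with WNT3A and Activin A, and mesoderm with VEGF, BMP4 and bFGF after a first day that also had Activin A. All lysis buffers held alpha-amanitin, an inhibitor of RNA polymerase II, so every group shares it. The design text of the series speaks of actinomycin D, but no sample label names it. Cytoplasm was the supernatant of the lysed cells over sucrose, nucleus RNA came from a portion of the nuclear pellet, and the rest of that pellet was split into nucleoplasm (supernatant) and chromatin (pellet). There were 46 libraries in 16 groups, with 3 libraries in 15 groups and 1 library of mesoderm nucleoplasm. All came from 1 cell line, and nothing in the labels says that repeats were separate cultures, so p-values measure the spread between these libraries, which may be technical.

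The depth was 4990408 to 21298678 counts per library. Levels are given as CPM, the share of a library's counts on a common scale, and as TPM, which also corrects for transcript length. Either is a share of the RNA sequenced from a fraction, so a ratio between fractions does not say which part of a cell's molecules lay in each, and fewer cells or less RNA per cell cannot be told apart. The labelled cell types were checked against markers in the cytoplasm libraries. A marker was called highest among only those tables that had a row for it. Of the endoderm markers, 6 of 6 were highest in endoderm, with SOX17 at 158 CPM. SOX17, FOXA2, CXCR4, GATA4 and EOMES had a row in the endoderm table alone, so they had no other value to be set against. In ectoderm, 3 of 5 markers were highest, with PAX6 at 203 CPM, while SOX1 had no row in any table and ZIC1 was at 0.358 CPM. Of those that were highest, LHX2 had a row in the ectoderm table alone. In mesoderm, only HAND1 and MSX2 of 6 markers were highest. The early mesoderm gene TBXT was at 0.132 CPM there, MESP1 and MIXL1 had no row in the mesoderm table, and the pluripotency gene POU5F1 was at 892 CPM, against 2954 CPM in hPSC. POU5F1 was also at 1765 CPM in endoderm. The mesoderm markers TBXT (4.94 CPM), MIXL1 (14.9 CPM) and PDGFRA (5.35 CPM) were highest in endoderm. Of the hPSC markers, 3 of 5 were highest in hPSC. What these mixed markers contribute to the values below was not tested.

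As background, NEAT1 RNA is the scaffold of paraspeckles, nuclear bodies that hold RNA-binding proteins such as NONO, SFPQ and PSPC1. The gene gives a short polyadenylated form and a long form that share their start, and it is the long form that builds the body. Undifferentiated human pluripotent cells are known for having few or no paraspeckles, which appear on differentiation. MALAT1 RNA is among the most abundant noncoding RNAs of many cells, is retained in the nucleus and gathers at nuclear speckles, where splicing factors are stored. Its mature end is made not by a poly(A) tail but by cleavage upstream of a tRNA-like structure, which leaves a triple helix that protects the RNA.

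The annotation used for position was GENCODE v29 on GRCh38, with both genes on the plus strand of chromosome 11. NEAT1 spans chr11:65422774-65445540 and MALAT1 spans chr11:65497688-65506516. Among the MALAT1 forms it lists an unspliced one, ENST00000534336 (8708 nt, 1 exon), and a short spliced one, ENST00000508832 (1519 nt, 2 exons), which lies inside the first and from which an intron of 243 nt at chr11:65502394-65502636 is removed. The letters at this intron are shown because the 2 forms differ in sequence only there and in where they begin and end. In the spliced form the capitals mark the first 3 bases of exon 2. In the unspliced form they mark the GT that opens the intron and the AG that closes it.
Spliced junction, chr11:65502364-65502666 without the intron: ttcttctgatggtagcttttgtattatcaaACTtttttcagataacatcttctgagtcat
Unspliced, end of exon 1, chr11:65502364-65502423: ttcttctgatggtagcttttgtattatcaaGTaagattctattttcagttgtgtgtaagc
Unspliced, start of exon 2, chr11:65502607-65502666: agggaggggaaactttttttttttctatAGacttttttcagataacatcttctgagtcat

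For NEAT1 the letters just past the listed end of the short forms are shown, a stretch that lies inside the long form. Among the NEAT1 forms that GENCODE lists, those read here were 2 short forms, of 3441 nt and 3524 nt, and a long unspliced form of 22743 nt, ENST00000501122. In the first sequence the capitals mark AATAAA, the polyadenylation hexamer, which starts 46 nt past the listed end of the longer-reaching short form. The hexamer was searched on the plus strand of the long form and occurs there 8 times, so a match alone is a description of the letters and not of a used site. The second sequence is the end of the long form, with its A-rich stretch in capitals.
NEAT1 past the listed end of the short form, chr11:65426473-65426538: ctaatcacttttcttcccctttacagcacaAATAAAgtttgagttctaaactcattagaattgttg
NEAT1 end of the long form, chr11:65445481-65445540: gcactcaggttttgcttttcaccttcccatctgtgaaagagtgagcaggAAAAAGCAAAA

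The assembled forms of the genes differed between cell types. MALAT1 had 1 model in the hPSC assembly, 2 in that of ectoderm, 1 in that of endoderm and 2 in that of mesoderm. The hPSC, ectoderm and endoderm tables labelled a model as ENST00000534336, and mesoderm had in its place a model with no Ensembl transcript name. The short spliced ENST00000508832 had a row in ectoderm and in mesoderm only. NEAT1 had 1 model in hPSC, 1 in ectoderm and 1 in mesoderm, each without an Ensembl transcript name, and no row in the endoderm table. A missing row says that no model was listed in that assembly, not that the RNA was absent.

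Model lengths were recovered from the ratio of counts to TPM, calibrated on annotated transcripts of the same libraries with a median error of 0.206% to 0.505%. The unspliced MALAT1 model came to a median of 8728 nt in hPSC and 8759 nt in ectoderm. The endoderm model of the same name came to 7065 nt and the unlisted mesoderm model to 5938 nt. The NEAT1 model came to 12801 nt in hPSC, 18065 nt in ectoderm and 18066 nt in mesoderm. Each of the 3 NEAT1 models is therefore longer than the short forms named above and shorter than the long form named there. The short spliced MALAT1 form came to 1515 nt in both tables that hold it, close to the listed 1519 nt. Since the length behind a TPM differs between the assemblies, CPM is used first below for levels across cell types. Neither unit undoes a model that covers less of the gene, and reads outside a model are not counted for it.

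By mean CPM MALAT1 was highest in nucleoplasm in each cell type, and by mean TPM in each but mesoderm, where chromatin was at 313 TPM and the single nucleoplasm library at 288 TPM. The height of cytoplasm relative to nucleus differed between cell types. In hPSC the 3 libraries held 237, 252 and 208 CPM in cytoplasm, 74.1, 95.7 and 75.1 CPM in nucleus, 841, 1029 and 587 CPM in nucleoplasm, and 167, 149 and 94.9 CPM in chromatin. By CPM, each nucleoplasm library was above every other hPSC library, and cytoplasm lay above both nucleus and chromatin, which overlapped each other. Of all genes with a mean of at least 10 CPM, nucleoplasm was likewise higher than cytoplasm for 32.6% and than nucleus for 34.9%, and chromatin was lower than cytoplasm for 29%. By TPM, chromatin and cytoplasm overlapped, and their log2 ratio was -0.030 in place of -0.76. In ectoderm the values were 2179, 1112 and 1691 CPM in cytoplasm, 304, 34.2 and 166 CPM in nucleus, 2082, 1764 and 2114 CPM in nucleoplasm, and 719, 879 and 576 CPM in chromatin. Here cytoplasm and nucleoplasm overlapped, and the nucleus libraries lay lowest and spread 8.88-fold, with repeat 2 far below the others. Nucleus was likewise below nucleoplasm for 45.5% of all genes and below chromatin for 54.1%, and chromatin below cytoplasm for 30.8%.

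In endoderm MALAT1 stood at 114, 170 and 93.4 CPM in cytoplasm, 29.01, 275 and 87.1 CPM in nucleus, 752, 1081 and 792 CPM in nucleoplasm, and 445, 413 and 483 CPM in chromatin. The endoderm nucleus libraries spread 9.48-fold and enclosed all cytoplasm libraries, while nucleoplasm and chromatin each stood apart from the rest. Nucleoplasm was likewise higher than cytoplasm for 23.2% of all endoderm genes and than nucleus for 31.5%, and chromatin was higher than cytoplasm for 38.6% and than nucleus for 50.8%. In mesoderm MALAT1 stood at 156, 172 and 187 CPM in cytoplasm, 227, 281 and 445 CPM in nucleus, 897 CPM in the single nucleoplasm library, and 465, 343 and 866 CPM in chromatin. Mesoderm is the cell type whose cytoplasm libraries lay below all other fractions, and chromatin was likewise above cytoplasm for 39.8% of all genes there. The rank of MALAT1 among the genes of its table ranged from 24 of 17728 in ectoderm nucleoplasm to 4280 in the lowest ectoderm nucleus library.

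**Figure D1:**
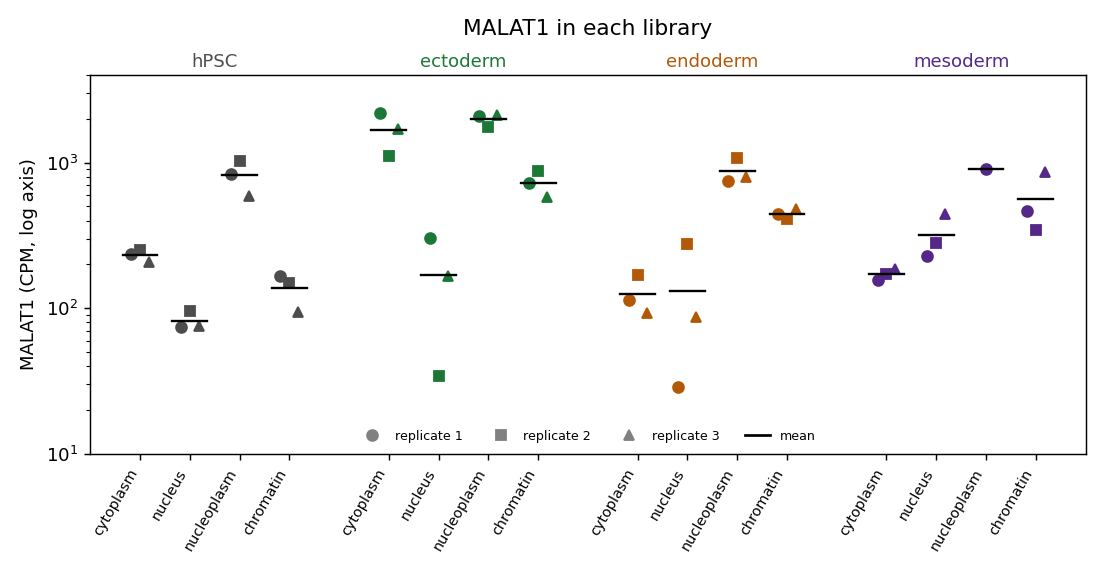
MALAT1 in CPM (log axis) in each library, by cell type and fraction; symbols give the repeat and the black line the mean of the group. Nucleoplasm has the highest mean CPM in each cell type, and the nucleus libraries of ectoderm (34.2 to 304 CPM) and endoderm (29.01 to 275 CPM) spread the most.

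The ratios between fractions put numbers on this order. From nucleus to cytoplasm, the log2 ratio of mean MALAT1 CPM was 1.51 in hPSC and 3.31 in ectoderm, with no overlap of the libraries; for 45.8% and 45.9% of all genes, cytoplasm was likewise higher without overlap. In ectoderm 99.9% of 10432 genes with a mean of at least 10 CPM had a lower cytoplasm to nucleus ratio than MALAT1. In endoderm the log2 ratio was -0.05 and the libraries overlapped, and without nucleus repeat 2 it was 1.12. In mesoderm it was -0.89, with cytoplasm lower and no overlap, as held for 43.8% of all genes there.

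From nucleoplasm to chromatin MALAT1 was lower without overlap in hPSC, ectoderm and endoderm. For hPSC the log2 ratio was -2.58, for ectoderm -1.45 and for endoderm -0.97. Of all genes, 14.8%, 25.3% and 24.1% were lower in chromatin without overlap in those cell types. In hPSC 0.0511% of 9778 genes lay further towards nucleoplasm. In mesoderm the ratio to the single nucleoplasm library was -0.69 on the log2 scale by CPM and 0.12 by deposited TPM, so its direction depends on the unit.

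Nucleoplasm and chromatin were split from the nuclear pellet, yet the mean MALAT1 CPM of nucleus lay below both of them in each of the 4 cell types. That position was shared by 46.7% of all hPSC genes, and by 53.9% for ectoderm, 35.8% for endoderm and 16.5% for mesoderm. NEAT1 also lay below both in hPSC and ectoderm, and between them in mesoderm. These positions of MALAT1 and NEAT1 were the same with TMM factors (a scaling that evens out the bulk of genes), with deposited TPM and with a lower filter.

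NEAT1 was scarce in hPSC and higher in ectoderm and mesoderm. Its hPSC counts ran from 14 to 148 per library, so its levels there rest on few reads. The libraries held 3.48, 3.74 and 2.59 CPM in cytoplasm, 1.07, 1.70 and 0.888 CPM in nucleus, 9.40, 10.5 and 8.40 CPM in nucleoplasm, and 1.08, 1.16 and 2.26 CPM in chromatin. As for MALAT1, nucleoplasm was highest by CPM, cytoplasm came next, and nucleus and chromatin overlapped. By TPM chromatin overlapped cytoplasm as well, with a log2 ratio of -0.35 in place of -1.12. In ectoderm NEAT1 stood at 40.8, 33.7 and 37.0 CPM in cytoplasm, 6.98, 2.39 and 6.57 CPM in nucleus, 31.7, 18.4 and 29.4 CPM in nucleoplasm, and 20.6, 21.0 and 26.5 CPM in chromatin. By CPM, cytoplasm lay above all other ectoderm fractions, and nucleus below them, with its repeat 2 again the lowest. Nucleoplasm was below cytoplasm without overlap for 33.7% of all genes. By TPM, cytoplasm overlapped both chromatin and nucleoplasm, and the log2 ratio of chromatin to cytoplasm was 0.074 in place of -0.71.

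In mesoderm the order of the fractions was another one. NEAT1 stood at 39.0, 39.7 and 38.0 CPM in cytoplasm, 69.6, 59.9 and 117 CPM in nucleus, 44.8 CPM in the single nucleoplasm library, and 144, 118 and 182 CPM in chromatin. Chromatin was highest and cytoplasm lowest, with no overlap between any of the 4 fractions. The step between the chromatin and nucleus libraries that lay closest was small, from 118 to 117 CPM, and 15% of all genes were higher in chromatin than in nucleus without overlap. NEAT1 reached rank 986 of 15018 genes in mesoderm chromatin, against ranks 12437 to 13288 of 15125 in hPSC chromatin.

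**Figure D2:**
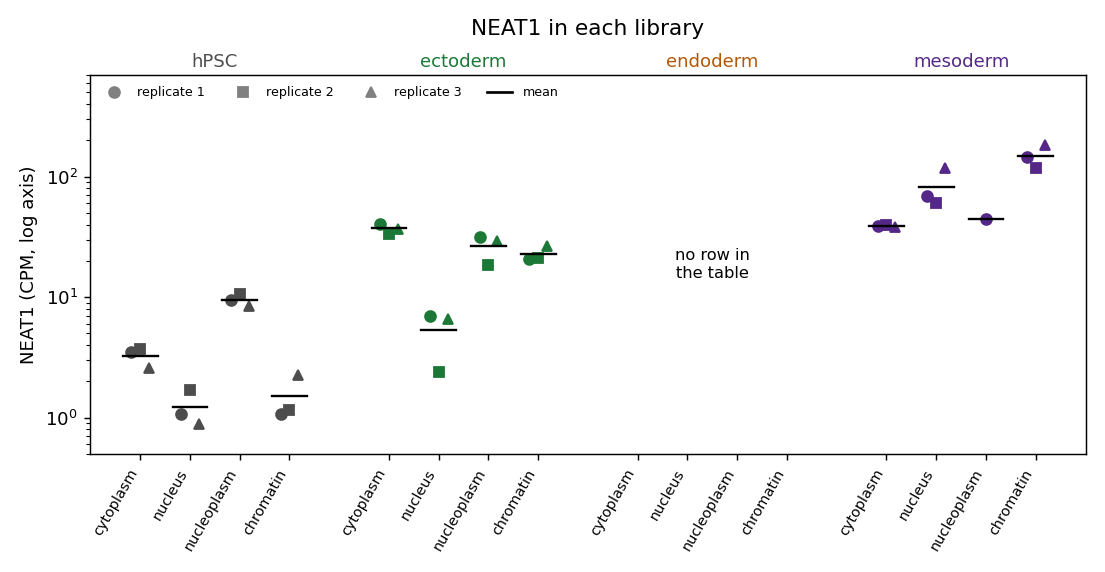
NEAT1 in CPM (log axis) in each library, by cell type and fraction, drawn as for MALAT1; the endoderm table has no NEAT1 row. The hPSC libraries lie between 0.888 and 10.5 CPM, and the mesoderm chromatin libraries between 118 and 182 CPM.

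Between fractions, NEAT1 moved with MALAT1 from nucleus to cytoplasm. For NEAT1 this log2 ratio was 1.42 in hPSC, 2.81 in ectoderm and -1.08 in mesoderm, each without overlap. From nucleoplasm to chromatin it stood apart from MALAT1 in 2 cell types. The NEAT1 log2 ratio was -2.66 in hPSC with no overlap, -0.22 in ectoderm with overlapping libraries, and 1.72 in mesoderm against the single nucleoplasm library. In mesoderm 93.0% of genes had a lower chromatin to nucleoplasm ratio than NEAT1, and 16.9% had a lower one than MALAT1. The single nucleoplasm library leaves the mesoderm ratio without a spread on that side. A difference between the cell types in these ratios was not tested, since the genes were chosen on them.

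**Figure D3:**
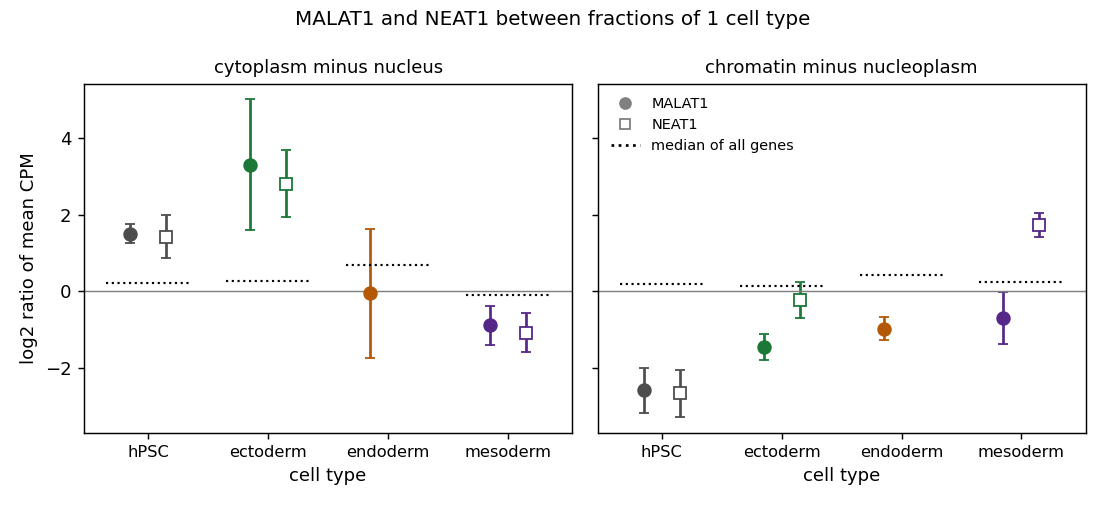
Log2 ratio of mean CPM for cytoplasm against nucleus (left) and chromatin against nucleoplasm (right) by cell type; filled circles are MALAT1, open squares NEAT1, error bars the combined SD of log2 CPM of both groups, and dotted lines the median of all genes. The single mesoderm nucleoplasm library adds nothing to its error bar. NEAT1 goes from -2.66 in hPSC to 1.72 in mesoderm in the right panel, and MALAT1 stays below 0.

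Other transcripts of known location were read in the same libraries. The cytoplasmic mRNAs of nuclear genes were 6 (GAPDH, ACTB, RPLP0, EEF1A1, TUBA1B, RPS3). In hPSC all were higher in cytoplasm than in nucleus without overlap, as held for 45.8% of all genes. In ectoderm none was, and RPLP0 was lower, with a log2 ratio of -0.35. The lowest log2 ratio among these mRNAs was 0.95 in hPSC, 0.95 in endoderm and 0.58 in mesoderm. The median of all genes was 0.22, 0.70 and -0.10 there. All 6 mRNAs thus lay above the median of all genes in those cell types. The nuclear noncoding RNAs with a row and enough counts in ectoderm (KCNQ1OT1, SNHG14, MEG3 and TUG1) were 4 of 4 higher in cytoplasm there. In mesoderm 3 of 3 of them were lower in cytoplasm without overlap, as held for 43.8% of all genes. In hPSC the log2 ratio was -0.40 for SNHG14 and -1.11 for TUG1. In endoderm it was 1.33 for SNHG14 and 0.28 for TUG1, whose libraries overlapped. In ectoderm 45.9% of all genes were higher in cytoplasm without overlap, and TUG1 had a log2 ratio of 0.49 where the median of all genes was 0.26.

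Mitochondrial genes held 0.399% to 1.58% of counts in cytoplasm and 8.09% to 16.1% in nucleus over hPSC, ectoderm and endoderm. Their mRNAs MT-CO1, MT-ND1 and MT-CYB were 3 of 3 lower in cytoplasm in those cell types and 3 of 3 higher in mesoderm. In mesoderm the order of the share was turned, with 5.84% to 7.46% in cytoplasm and 1.11% to 1.36% in nucleus. Mesoderm is also the cell type in which the cytoplasm to nucleus ratio of MALAT1 and of NEAT1 was below 0 on the log2 scale without overlap. What the separation of the fractions contributes to the ratios of MALAT1 and NEAT1 was not tested. Among mesoderm chromatin libraries, repeat 3 had both the highest MALAT1 (866 CPM) and the highest mitochondrial share (5.53%).

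Comparing each derived cell type with hPSC within a fraction asks how the 2 RNAs change as the cells differentiate. The 2 genes took part in 18 such tests, and 15 had an adjusted p under 0.05 (edgeR quasi-likelihood test, Benjamini-Hochberg adjustment over all genes tested). Most genes also differed between these cell types, so the shares of all genes called are given beside each result. Each cell type has its own assembly, so a difference of assembly and a difference of cells cannot be told apart in these tests.

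In chromatin, MALAT1 rose in all 3 derived cell types. From 137 ± 37.5 CPM (SD, n = 3) in hPSC, its mean went to 725 ± 151 for ectoderm, 447 ± 34.99 for endoderm and 558 ± 274 for mesoderm. No derived library overlapped the hPSC ones, and the share of all genes without overlap between these cell types was not counted. The log2 change was 2.42 ± 0.31 (SE) in ectoderm (edgeR adjusted p = 1.36e-05), 1.89 ± 0.30 in endoderm (0.000133) and 2.11 ± 0.31 in mesoderm (6.91e-05). Of all genes, 62.9%, 61.8% and 54.5% were called in those comparisons, and 30.5%, 28.9% and 27.1% were called higher. On deposited TPM plus 1, where the mesoderm sum includes a short form with no hPSC row, the mesoderm change was larger, at 3.51. The median of all genes was 0.20 in that fit.

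In cytoplasm the derived cell types parted. MALAT1 averaged 232 ± 22.4 CPM (SD, n = 3) in hPSC and 1661 ± 534 in ectoderm, a log2 rise of 2.73 ± 0.22 (edgeR adjusted p = 3.59e-08), where 75.9% of all genes were called. In endoderm it averaged 126 ± 39.9 CPM and fell by 1.06 on the log2 scale (SE 0.21, edgeR adjusted p = 0.000723), where 58.1% were called. The endoderm call was lost on deposited TPM, at -0.49 with an adjusted p of 0.0612 by limma. In mesoderm it averaged 172 ± 15.2 CPM, with a log2 difference of -0.49 ± 0.21 that did not pass (edgeR adjusted p = 0.0534; 68% of all genes were called). That mesoderm difference passed without hPSC repeat 3 (adjusted p = 0.039), without mesoderm repeat 3 (0.0432) and with DESeq2 (0.0271). On deposited TPM it turned to 0.87 with a limma adjusted p of 0.00107, so the direction of MALAT1 in mesoderm cytoplasm depends on the unit. The mesoderm TPM sum holds a shorter unlisted model and the short spliced form, which has no hPSC row. The unlisted model alone held 26.44, 30.45 and 29.35 TPM in mesoderm cytoplasm, and the hPSC model 23.23, 30.52 and 26.2 TPM.

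In nucleoplasm MALAT1 averaged 819 ± 221 CPM (SD, n = 3) in hPSC and 1986 ± 194 in ectoderm, a log2 rise of 1.21 ± 0.16 (edgeR adjusted p = 3.14e-07; 79.7% of all genes were called). In endoderm it averaged 875 ± 180 CPM, and its libraries overlapped those of hPSC. The edgeR fit gave an endoderm rise of 0.61 ± 0.16 (adjusted p = 0.00127; 77% of all genes were called). With total counts in place of TMM the same difference was -0.0080 (adjusted p = 0.961), while the median of all genes moved by -0.62, so the endoderm rise is relative to the bulk of the other genes. Mesoderm nucleoplasm, at 897 CPM in 1 library, was not tested.

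In nucleus the spread was too wide for a firm result on MALAT1. Against 81.6 ± 12.2 CPM (SD, n = 3) in hPSC, the log2 difference was 1.00 ± 0.63 in ectoderm (edgeR adjusted p = 0.188; 57.6% of all genes were called) and 0.93 ± 0.63 in endoderm (0.22; 57.4% were called). Neither passed. Leaving out ectoderm repeat 2, the library at 34.2 CPM, gave 1.49 with an adjusted p of 0.0343. Leaving out endoderm repeat 2, the library at 275 CPM, gave -0.14 with an adjusted p of 0.852. Mesoderm averaged 318 ± 114 CPM and rose by 1.79 ± 0.64 (edgeR adjusted p = 0.0296; 54% of all genes were called). This mesoderm call was lost without hPSC repeat 1 (adjusted p = 0.0897), 2 (0.0537) or 3 (0.0839), without mesoderm repeat 3 (0.0988), on total counts (0.0558) and with the replicate block (0.0523). On deposited TPM, with the shorter mesoderm model and the short spliced form summed, the change was larger, at 3.91 (limma adjusted p = 0.000285). In that fit the median of all genes was 0.78, and 6572 of 10655 genes were called higher. The unlisted model alone held 66.27, 83.92 and 165.33 TPM in mesoderm nucleus, and the hPSC model 11.33, 15.84 and 11.79 TPM.

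NEAT1 rose in 7 of 7 tests, and the fits for it held hPSC, ectoderm and mesoderm. Genes called in either direction numbered 9037 (ectoderm) and 8071 (mesoderm) of 11976 in cytoplasm, and 7356 and 6280 of 11996 in chromatin. They numbered 7901 and 7678 of 11940 in nucleus, and 9457 (ectoderm) of 11908 in nucleoplasm. In cytoplasm NEAT1 went from 3.27 ± 0.606 CPM (SD, n = 3) in hPSC to 37.2 ± 3.54 in ectoderm and 38.9 ± 0.849 in mesoderm. The log2 change was 3.42 ± 0.14 in ectoderm (edgeR adjusted p = 1.21e-09; 38.9% of all genes were called higher) and 3.51 ± 0.14 in mesoderm (1.70e-09; 34.8% were called higher). In chromatin it went from 1.50 ± 0.66 CPM to 22.7 ± 3.29 in ectoderm and 148 ± 32.6 in mesoderm. That is a log2 change of 3.89 ± 0.29 in ectoderm (edgeR adjusted p = 1.26e-06; 29.8% were called higher) and 6.69 ± 0.32 in mesoderm (9.07e-08; 26% were called higher). The mesoderm change corresponds to 103-fold by CPM. On deposited TPM plus 1, where low values are pulled together and the hPSC model is 12801 nt against 18066 nt in mesoderm, the changes were smaller and still called. They came to 3.95 in mesoderm chromatin and 1.56 in ectoderm chromatin, and to 1.44 and 1.45 in mesoderm and ectoderm cytoplasm.

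In nucleoplasm NEAT1 went from 9.45 ± 1.08 CPM (SD, n = 3) in hPSC to 26.5 ± 7.11 in ectoderm, a log2 change of 1.42 ± 0.18 (edgeR adjusted p = 1.10e-06; 39.9% of all genes were called higher). In nucleus it went from 1.22 ± 0.426 CPM to 5.31 ± 2.54 in ectoderm and 82.3 ± 30.7 in mesoderm. The log2 change was 2.08 ± 0.43 in ectoderm (edgeR adjusted p = 0.00103; 31.8% were called higher) and 5.80 ± 0.41 in mesoderm (2.93e-07; 28.4% were called higher). No library overlapped between hPSC and the derived type in any of the 7 comparisons. How many of all genes likewise had no overlap was not counted. On deposited TPM plus 1 the change in mesoderm nucleus was 3.28 and that in ectoderm nucleoplasm 0.65, both called. The median of all genes was 0.78 and 0.11 in those fits. The ectoderm nucleus call was lost, at 0.26 with a limma adjusted p of 0.387, where all 6 libraries held under 1 TPM. Ectoderm and mesoderm were not tested against each other.

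**Figure D4:**
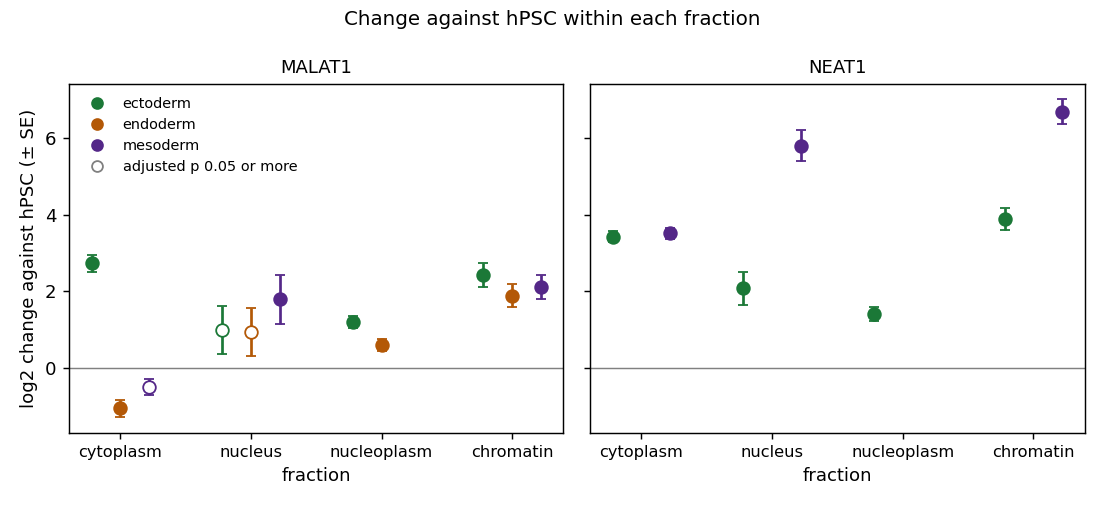
Log2 change against hPSC within each fraction, with its SE, for MALAT1 (left) and NEAT1 (right); colours give the derived cell type and open circles an adjusted p of 0.05 or more. NEAT1 lies above 0 in each comparison, up to 6.69 in mesoderm chromatin, and MALAT1 in cytoplasm runs from -1.06 in endoderm to 2.73 in ectoderm.

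The 2 MALAT1 models of ectoderm and mesoderm can be set against each other per length, by TPM. The short spliced form shown above took 21.1%, 21.0% and 9.38% of MALAT1 TPM in ectoderm cytoplasm, 25.0%, 33.5% and 20.7% in nucleus, 23.8%, 27.2% and 25.5% in nucleoplasm, and 23.0%, 17.1% and 19.01% in chromatin. The fractions overlapped, except that nucleoplasm lay above cytoplasm and chromatin in all libraries. In mesoderm the form took 43.4%, 42.3% and 40.0% in cytoplasm, 58.2%, 57.5% and 42.1% in nucleus, 26.2% in the single nucleoplasm library, and 50.4%, 50.8% and 31.7% in chromatin. The mesoderm nucleoplasm library lay below the other mesoderm libraries, and repeat 3 was the lowest of its group in cytoplasm, nucleus and chromatin.

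By reads the short form was a small part of the gene. It held a mean of 2.98% to 5.04% of MALAT1 counts over the ectoderm fractions, and 7.01% to 19.7% over the mesoderm fractions. The partner model is 8759 nt in ectoderm and 5938 nt in mesoderm, and reads from the stretch that the forms share must be divided by estimation, so the shares of the 2 cell types rest on different models and were not tested against each other. On the combined assembly, whose tables hold ectoderm libraries, a further unlisted MALAT1 model of 5934 nt, near the length of the mesoderm one, had a row. It held 1530, 0 and 1111 counts in the 3 ectoderm cytoplasm libraries and 0 in the other 9 ectoderm libraries. The combined tables put the mean share of the short form in ectoderm cytoplasm at 15.8% in place of 17.2%.

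**Figure D5:**
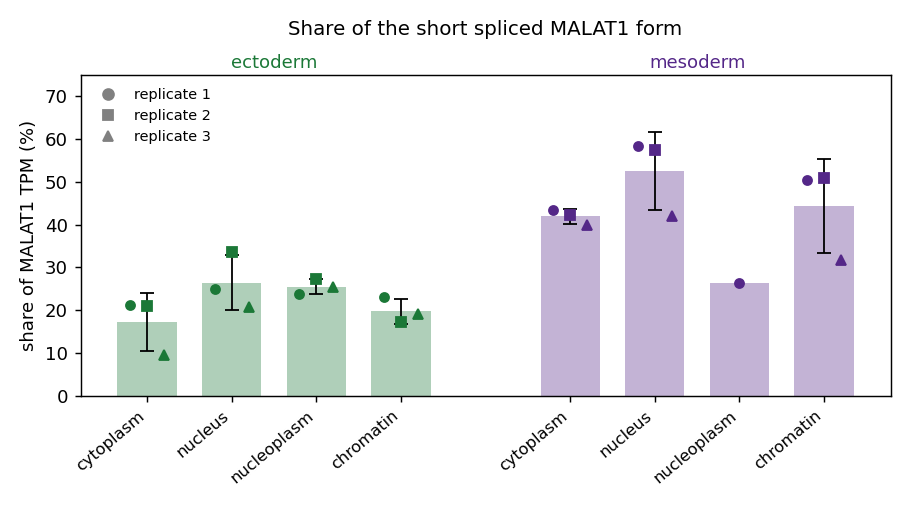
Share of MALAT1 TPM on the short spliced form ENST00000508832 by fraction in ectoderm and mesoderm; bars are means, error bars the SD over 3 libraries, and points the libraries. Ectoderm means lie between 17.2% and 26.4%, and mesoderm means between 26.2% in the single nucleoplasm library and 52.6% in nucleus.

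Per length, MALAT1 outnumbered NEAT1 in each library that had both. The ratio of MALAT1 to NEAT1 TPM was 62.2 to 223 in hPSC libraries and 42.2 to 262 in ectoderm libraries. In mesoderm it was 15.3 to 27.0 outside nucleoplasm, and 79.9 in the single nucleoplasm library. The mesoderm ratios other than that of nucleoplasm were below each hPSC and ectoderm ratio.

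Ordered by mean CPM, the 16 groups of MALAT1 ran from ectoderm nucleoplasm (1986 CPM) down to hPSC nucleus (81.6 CPM), a span of 24.3-fold. The libraries of 13 of the 15 neighbouring pairs in that order overlapped, and the breaks lay below ectoderm cytoplasm and below hPSC cytoplasm. The 12 groups of NEAT1 ran from mesoderm chromatin (148 CPM) down to hPSC nucleus (1.22 CPM), a span of 121-fold, and 4 of 11 neighbouring pairs overlapped. The 4 mesoderm groups were the 4 highest for NEAT1, though mesoderm cytoplasm overlapped ectoderm cytoplasm.

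Over these 12 groups, Pearson's r between the 2 genes was 0.58 on log2(mean CPM + 1), a description over groups that share libraries and depth. MALAT1 ranked 1386 of 9754 genes by its likeness to NEAT1. Within cell types, r over libraries was 0.94 in hPSC (12 libraries), 0.93 in ectoderm (12) and 0.61 in mesoderm (10). The genes whose group means were most like MALAT1 over 16 groups were CENPE (r = 0.87), a kinetochore motor protein, GOLT1B (0.83), JKAMP (0.82), TOP2A (0.79), the DNA topoisomerase of dividing cells, and ZC3H13 (0.79), a part of the RNA methylation machinery. Among those most like NEAT1 over 12 groups were BAZ1A (0.98), a chromatin remodelling subunit, HERC4 (0.96), HMGCS1 (0.96), an enzyme of cholesterol synthesis, and GAB1 (0.95), a signalling adaptor.

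The mRNAs of proteins that work with the 2 RNAs were read in the same fits. Of 17 genes for proteins of the paraspeckle or needed for it, 12 fell and 4 rose in ectoderm nucleoplasm, with a median log2 change of -0.54 where that of all genes was 0.00. In endoderm nucleoplasm 11 fell and 3 rose, with a median of -0.48. In cytoplasm 8 fell in each derived cell type, with 3 rising in ectoderm, 2 in endoderm and 0 in mesoderm. In chromatin 6 fell in each, with 3, 3 and 2 rising. In nucleus 8 fell and 2 rose in ectoderm, 9 fell and 2 rose in endoderm, and 6 fell and 2 rose in mesoderm. These counts stand beside the shares of all genes called in the same fits. In nucleoplasm 39.8% fell and 39.9% rose for ectoderm, and 38.8% and 38.2% for endoderm. In cytoplasm 37.9% fell and 38% rose for ectoderm, 28.6% and 29.6% for endoderm, and 33.4% and 34.6% for mesoderm. In chromatin 32.4% fell and 30.5% rose for ectoderm, 33% and 28.9% for endoderm, and 27.4% and 27.1% for mesoderm. In nucleus 28.9% fell and 28.7% rose for ectoderm, 29.3% and 28.1% for endoderm, and 28% and 26% for mesoderm. With total counts in place of TMM the list in endoderm nucleoplasm held 15 that fell and 0 that rose. Of all 10652 genes in that fit, 6814 fell and 2184 rose. By limma on deposited TPM plus 1 the balance turned in mesoderm nucleus, to 1 that fell and 10 that rose where the median of all genes was 0.78. It also turned in endoderm cytoplasm, to 2 and 3 where that median was 0.27. Of all genes, 863 of 10655 fell and 6572 rose in that mesoderm nucleus fit. For endoderm cytoplasm 1206 of 10679 fell and 4119 rose. The direction of the list in those comparisons therefore depends on the unit.

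Within that list the mRNAs of the core paraspeckle proteins did not move alike. RBM14, needed to assemble the body, fell in all 3 derived cell types in chromatin, with log2 changes of -1.09 in ectoderm (edgeR adjusted p = 1.54e-05), -1.09 for endoderm (2.16e-05) and -1.08 for mesoderm (3.13e-05). PSPC1 fell in mesoderm chromatin, with a log2 change of -1.35 (edgeR adjusted p = 5.38e-06), where NEAT1 was highest. SFPQ, which binds NEAT1 and is needed for the body, rose there by 0.64 (edgeR adjusted p = 0.00619). NONO, its partner, rose in ectoderm chromatin by 0.86 (edgeR adjusted p = 0.00079) and fell in mesoderm chromatin, with a change of -0.59 (0.0116).

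Of 10 genes for speckle proteins and for proteins that act on the MALAT1 end, none rose and 5 fell in chromatin in each derived cell type, beside 27.4% to 33% of all genes that fell and 27.1% to 30.5% that rose. With total counts 1 rose in ectoderm chromatin, and by TPM 2 rose there and 1 in mesoderm. Of all 10675 genes, 3572 rose with total counts in ectoderm chromatin. By TPM 3312 rose in ectoderm chromatin and 3366 in mesoderm chromatin. In cytoplasm 5 fell and 2 rose in ectoderm, 5 fell and 0 rose in endoderm, and 7 fell and 0 rose in mesoderm. In nucleoplasm 6 fell and 1 rose in ectoderm, and 6 fell and 3 rose in endoderm, where total counts in place of TMM gave 9 and 0. In nucleus 5 fell and 3 rose in ectoderm, 4 fell and 1 rose in endoderm, and 3 fell and 1 rose in mesoderm. By TPM the mesoderm nucleus counts turned, to 0 that fell and 7 that rose, where 6572 of all 10655 genes rose. In endoderm cytoplasm they came to 1 and 1. The shares of all genes given above for the other fractions hold here for the edgeR counts with TMM. The counts of all genes given above for total counts and for TPM hold here for those settings. SRSF2, a splicing factor of the speckle, fell in ectoderm cytoplasm, with a log2 change of -2.22 (edgeR adjusted p = 2.54e-11). ELAC2, the tRNA end-processing enzyme that trims the RNA cut from MALAT1, fell in ectoderm nucleoplasm, with a log2 change of -0.94 (edgeR adjusted p = 1.45e-10). ELAC2 was called lower in the other ectoderm fractions and in mesoderm cytoplasm too. In endoderm it rose, by 0.78 in nucleoplasm (edgeR adjusted p = 2.45e-09) and by 0.58 in nucleus (0.00885). With total counts in place of TMM neither endoderm rise was called, and by TPM plus 1 the one in nucleus was not. METTL16, which binds the triple helix, had a difference of 0.15 in ectoderm chromatin that did not pass (edgeR adjusted p = 0.389). It was called lower in endoderm chromatin (-0.54, edgeR adjusted p = 0.00547), mesoderm chromatin (-0.39, 0.0343) and endoderm nucleoplasm (-0.45, 8.71e-05). In ectoderm nucleus it was called higher, at 0.75 (edgeR adjusted p = 0.000277).

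Genes beside or antisense to the pair were read in the same fits. TALAM1, antisense to MALAT1, had no row, and the counting is not stated to use strand, so reads of MALAT1 and of its antisense partner cannot be told apart. In ectoderm cytoplasm, where MALAT1 and NEAT1 rose, LTBP3 fell with a log2 change of -0.93 (edgeR adjusted p = 3.66e-05) and FRMD8 with -0.86 (0.000654). LTBP3, a secreted binding protein of latent TGF-beta, rose in endoderm chromatin by 1.75 (edgeR adjusted p = 7.30e-05) and in mesoderm chromatin by 1.96 (3.69e-05).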

How the data were processed

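RNA of 4 fractions of H1 cells and of 3 derivatives was measured in 46 libraries. The authors deposited whole-number counts per assembled transcript and TPM, in 10 tables, with an assembly for each cell type and a combined one. Per the submitters' processing notes, STAR, RSEM and hg38 were used, with no versions or roles given. The counts may be rounded RSEM estimates, and how reads were divided between isoforms and strands is not given in the sources used here. Groups came from the sample titles. The single mesoderm nucleoplasm column is numbered 3 in the tables, and the title of its sample says repeat 1. There was 1 deposited column that matched no sample and was not used.

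Counts were summed per gene and scaled to CPM of the library total. Tests between cell types within a fraction used edgeR 4.0.16 in R 4.3.3 (TMM, filterByExpr with a minimum count of 10, quasi-likelihood F test, two-sided, Benjamini-Hochberg over all genes), on genes with a row in all 4 tables. NEAT1 has no endoderm row, so its fits held hPSC, ectoderm and mesoderm, and its likeness to other genes was taken over 12 groups in place of the planned 16. This was chosen after the tables were seen. Self-tests on simulated data were run. Alternatives were total counts, no filter, DESeq2 1.42.0, limma 3.58.1 on log2(TPM + 1) and log2(TPM + 0.1), a replicate block, fits of the 2 groups compared, the combined assembly for ectoderm and leaving out each library. Model length was the count to TPM ratio, scaled on transcripts with at least 20 TPM and 200 counts. Sequences were read from GENCODE v29. The tables name MALAT1 as ENST00000534336.2 and GENCODE v29 holds ENST00000534336.1.

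The depth was 4990408 to 21298678 counts per library. Of 45 pairs of replicate libraries 0 were identical, and chi-squared per degree of freedom was at least 14.3. The members, gene lists, named genes (the members, the list genes and the 5 genes most like each member) and tests were chosen with earlier results of these data known. Some genes that these rules pick are not reported here.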

Additional observations from a re-analysis of the deposited data

Results flagged for a closer look

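From nucleus to cytoplasm, MALAT1 and NEAT1 were higher in every cytoplasm library of hPSC and ectoderm than in any nucleus library, and lower in every cytoplasm library of mesoderm. The log2 ratio of mean CPM for MALAT1 was 1.51 in hPSC, 3.31 in ectoderm and -0.89 in mesoderm. For NEAT1 it was 1.42 in hPSC, 2.81 in ectoderm and -1.08 in mesoderm. The cell types moved in opposite directions, and the difference between them was not tested. The mitochondrial share of counts ran in opposite directions too, at 0.399% to 0.615% in hPSC cytoplasm and 5.84% to 7.46% in mesoderm cytoplasm, and its part in the ratios was not tested.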

How the results depend on the processing

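Of 248 alternative values for the 18 tests between cell types, 227 kept the direction and the side of the threshold. Of 122 for the ratios of cytoplasm to nucleus and of chromatin to nucleoplasm, 113 stayed within the spread of the libraries. Of 33 for the isoform shares, 25 did. The other pairs of fractions are not in this count. A wide spread makes that easy to meet, as for MALAT1 cytoplasm against nucleus in endoderm, with an SD of 1.68 on the log2 scale. The cause of the changes below was not tested. In the tests between cell types, TPM sums depend on model lengths and on listed models, and both differ between the assemblies. The fraction ratios of a cell type have the same assembly on both sides, so that difference does not enter them. What moved those ratios on deposited TPM was not tested.

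On deposited TPM plus 1 and plus 0.1, MALAT1 in endoderm cytoplasm came to -0.49 and -0.51 (adjusted p 0.0612 and 0.0669), MALAT1 in mesoderm cytoplasm to 0.87 and 0.90 (0.00107 and 0.00178), and NEAT1 in ectoderm nucleus to 0.26 and 0.92 (0.387 and 0.0973). For MALAT1 in mesoderm cytoplasm, total counts gave -0.51, DESeq2 -0.50, a fit without endoderm -0.50 and a fit of only the 2 groups -0.48, each now past the threshold. With total counts MALAT1 came to 1.98 in mesoderm nucleus and -0.0080 in endoderm nucleoplasm. Total counts moved the median of all genes by -0.39 in endoderm nucleus and -0.62 in endoderm nucleoplasm, and the share of higher among called genes went from 48.9% to 28.5% and from 49.6% to 24.3%. In the mesoderm nucleus fit with NEAT1 that share went from 44.2% to 59.4%.

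Leaving out 1 library at a time, MALAT1 ran from -0.61 to -0.43 in mesoderm cytoplasm, from 0.34 to 1.49 in ectoderm nucleus, from -0.14 to 1.36 in endoderm nucleus and from 1.479 to 1.96 in mesoderm nucleus. Between cell types of a fraction, same-numbered deviations correlated from -0.53 to 0.40, so the repeat numbers did not pair those libraries; pairing between fractions of a cell type was not checked. With the replicate block MALAT1 in mesoderm nucleus came to 1.80 with an adjusted p of 0.0523, and no other call changed.

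Among fraction ratios, deposited TPM gave for cytoplasm against nucleus 1.04 for MALAT1 in hPSC and, in mesoderm, -2.11 for MALAT1 and -2.14 for NEAT1. For chromatin against nucleoplasm it gave -1.07 for MALAT1 and 0.27 for NEAT1 in ectoderm, and 0.12 for MALAT1 and 2.29 for NEAT1 in mesoderm. For chromatin against cytoplasm NEAT1 in ectoderm turned from -0.71 to 0.074. TMM factors within the cell type gave -1.59 for MALAT1 in endoderm and 1.36 for NEAT1 in mesoderm, chromatin against nucleoplasm.

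The share of genes whose nucleus mean lay below both subfractions was, with TMM factors, deposited TPM and a minimum of 1 CPM, 39.4%, 45.2% and 44.7% in hPSC, 37.8%, 69.2% and 57.4% in ectoderm, 30.3%, 39.9% and 38.2% in endoderm, and 14.2%, 4.51% and 17.8% in mesoderm. As a share of counts, the short MALAT1 form held 2.98%, 5.04%, 4.69% and 3.44% in ectoderm cytoplasm, nucleus, nucleoplasm and chromatin, and 13.6%, 19.7%, 7.01% and 15.0% in mesoderm. Depth limits NEAT1 in hPSC, with 14 to 148 counts a library.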
